A study of Mus musculus with 24 samples.

Results

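The comparison described here set mouse Lys-GFP-ER-HoxA9 cells cultured without beta-estradiol for 12 h against the same cells at 0 h, before withdrawal. It used 4 of the 24 libraries of the series, 2 at 12 h and 2 at 0 h, chosen by the withdrawal time in their labels. The study followed myeloid differentiation by RNA sequencing at 10 times from 0 to 120 h of withdrawal, in duplicate, and the 20 libraries of that course were fitted together so that all times shared 1 estimate of the spread. Both groups were C57Bl/6 cells carrying the lysozyme GFP reporter and the estrogen receptor-HOXA9 fusion, grown with serum and stem cell factor. The growth medium held 0.5 micromolar beta-estradiol, which the 0 h cells still had and the 12 h cells had been cultured out of. The labels do not say whether the line is a single clone, nor whether duplicates were separate cultures, so p-values measure only the spread between these libraries. Which changes were present once the early hours had passed was the question, so the 4 and 8 h libraries, 2 each, serve as reference points.

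HOXA9 is a homeodomain transcription factor that, with MEIS and PBX partners, holds blood progenitors in a proliferating, undifferentiated state. Fused to the hormone-binding domain of the estrogen receptor it is active while estradiol is present, and removing the hormone releases the block so that the progenitors mature along the myeloid lineage. Maturing myeloid cells pass control to factors such as PU.1 and the C/EBP family, fill their granules in sequence and acquire adhesion molecules and receptors for chemokines, cytokines and microbes.

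Gene rows held 36999089 and 46223117 counts in the 2 libraries at 0 h and 43690378 and 40095639 at 12 h. Levels are given as CPM, counts relative to each library's total and corrected for composition, with library A before library B, and they compare 1 gene between libraries, not different genes. Genes of myeloid progenitors were present. Kit, the stem cell factor receptor, was at 784 and 717 CPM at 0 h against 540.2 and 473 CPM at 12 h, and Mpo, the myeloperoxidase of primary granules, was at 3920.4 and 3684 CPM at 0 h against 5376 and 6209.6 CPM at 12 h. Hoxa9 stood at 148 and 129 CPM at 0 h against 169.7 and 163 CPM at 12 h and was not called (log2 change 0.26 ± 0.10, adjusted p = 0.096), nor was Esr1, the estrogen receptor gene (0.28 ± 0.09, adjusted p = 0.051). Esr1 passed the threshold in some alternative fits, DESeq2 among them. The labels do not say whether reads of the fusion transcript fall in either row. Transcripts encoded by mitochondria took 0.822 and 0.889% of gene counts at 0 h and 1.459 and 1.079% at 12 h.

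At 12 h, 2340 of the 14615 genes tested (16.0%) differed from 0 h at an adjusted p under 0.05 in edgeR's quasi-likelihood test with Benjamini-Hochberg adjustment. Of these, 1345 were higher (9.20% of genes tested) and 995 were lower (6.81%). A change of at least 2-fold was estimated for 424 of the higher and 284 of the lower genes, and a change of at least 4-fold for 160 and 106. The median log2 change of all genes tested was 0. The count fell to 1445 without library B of 0 h and to 1476 without library B of 12 h. The libraries of 12 h and 0 h did not overlap in 7563 genes (51.7%), so a gap between 4 libraries is common here and the call rests on the test. Against the same 0 h libraries, 1717 genes (11.7%) were called at 4 h, 7.22% higher and 4.53% lower. At 8 h the calls numbered 3201 (21.9%), 12.9% higher and 8.99% lower. Set directly against the earlier times, 12 h differed from 4 h in 2854 genes (19.5%) and from 8 h in 1346 (9.21%). These comparisons share libraries, so their counts are placed side by side and not compared.

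The 14 largest increases among genes of at least 3 in mean log2 CPM, of which 1 is not described, included granule proteins and immune receptors. Prg3, a proteoglycan of eosinophil granules, lies on mm10 chromosome 2, 84988215 to 84993886 and was at 4.16 and 5.80 CPM at 0 h against 38.1 and 46.2 CPM at 12 h, a log2 change of 3.07 ± 0.20 (adjusted p = 8.4e-10, with the standard error of the fit here and below). Csf2rb2, the beta chain specific to the mouse interleukin-3 receptor, was at 4.08 and 3.20 CPM at 0 h against 30.3 and 27.6 CPM at 12 h, a log2 change of 3.0 ± 0.18 (adjusted p = 2.9e-10). Csf2rb2 is a close copy of its neighbour Csf2rb, so reads could be divided between them and the split is uncertain. The choice of the 14 required that the libraries of the 2 times not overlap, so their separation is no added support.

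Fgl2, a fibrinogen-like protein of activated leukocytes, rose from 8.19 and 10.6 CPM to 73.2 and 64.9 CPM, a log2 change of 2.87 ± 0.15. Vsir, which encodes the inhibitory receptor VISTA, rose from 4.18 and 5.04 CPM to 32.1 and 30.7 CPM (2.76 ± 0.17). Hp, the hemoglobin-binding protein haptoglobin, rose from 10.2 and 10.0 CPM to 59.7 and 73.5 CPM (2.72 ± 0.17). The lower of the 2 libraries at 12 h was several times above the higher one at 0 h for each of them. Cebpe, the C/EBP factor of terminal granulocyte maturation, was at 8.29 and 9.40 CPM at 0 h against 36.2 and 50.3 CPM at 12 h, a log2 change of 2.29 ± 0.16. Cyp4f18, which inactivates leukotriene B4, went from 3.43 and 3.38 CPM to 16.8 and 21.0 CPM (2.47 ± 0.21), and Clec5a, a lectin-like receptor that signals through DAP12, from 38.5 and 49.0 CPM to 208 and 195 CPM (2.20 ± 0.14). The remaining genes described were the amino acid transporter gene Slc7a8 (2.75), Mreg (2.58), Mtus1 (2.46), the activating CD200 receptor family member Cd200r4 (2.27) and Igsf6 (2.22), given as log2 changes. Cd200r4 belongs to a family of near-identical genes, and its counts carry that uncertainty.

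**Figure D1:**
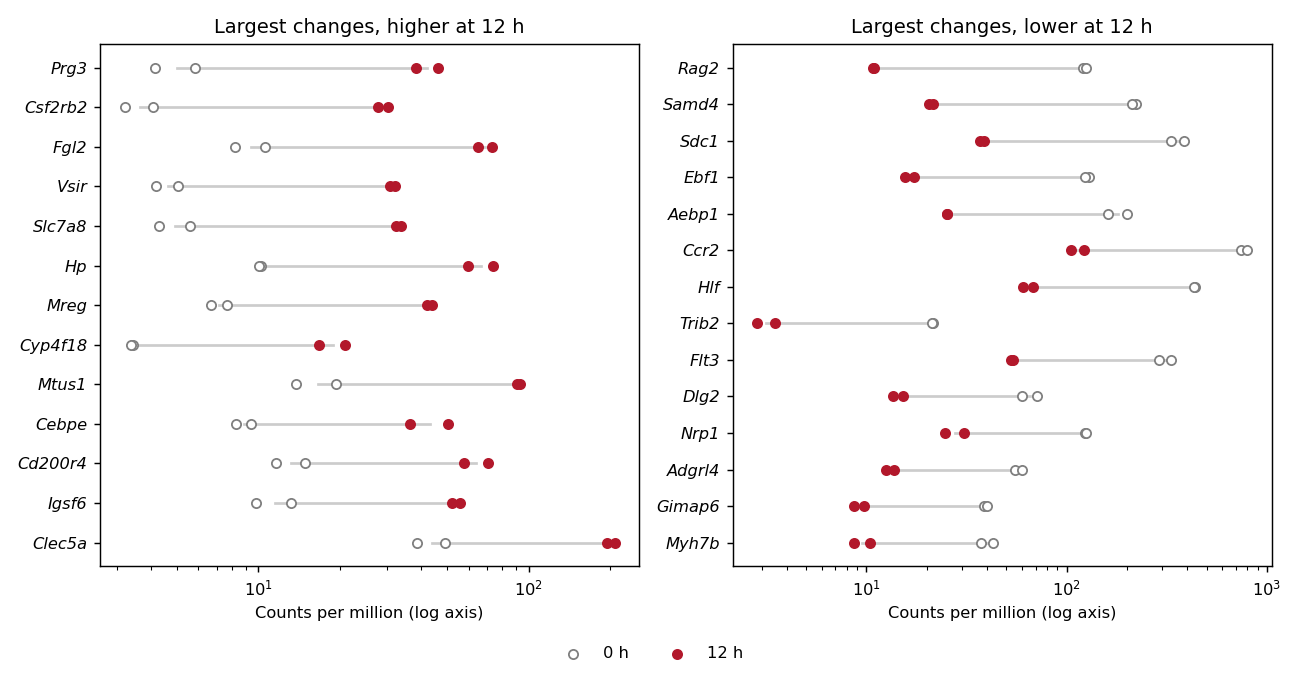
Level of the 14 largest increases, 1 not shown (left), and 14 largest decreases (right) among genes called at 12 h, in CPM on a log axis. Open points are the 2 libraries at 0 h, filled points the 2 at 12 h, and grey lines join the group means. In every gene drawn the libraries of the 2 times lie apart, as the choice of genes required.

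Lymphoid and progenitor genes stood among the 14 largest decreases. Rag2, a subunit of the recombinase that assembles antigen receptor genes, lies on mm10 chromosome 2, 101624718 to 101632529 and was at 120.0 and 125 CPM at 0 h against 10.9 and 10.8 CPM at 12 h. Its log2 change was -3.49 ± 0.15 (adjusted p = 6.6e-12), and the libraries within each time were nearly equal. Its partner Rag1 was at 44.3 and 35.6 CPM at 0 h against 0.258 and 0.0705 CPM at 12 h, with a log2 change of -7.87 ± 0.37 that rests on few counts at 12 h. Ebf1, the factor that commits progenitors to the B lineage, was at 129 and 124 CPM at 0 h against 17.2 and 15.6 CPM at 12 h (-2.94 ± 0.11, adjusted p = 4.6e-13). Flt3, the receptor tyrosine kinase of lymphoid and dendritic progenitors, was at 332 and 289.7 CPM at 0 h against 53.8 and 52.6 CPM at 12 h (-2.55 ± 0.17, adjusted p = 1.2e-09). For Rag2, Ebf1 and Flt3 the choice of the 14 required that the libraries of the 2 times not overlap. Those of Rag1, which is not among the 14, did not overlap either.

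Hlf, a PAR leucine zipper factor of blood stem cells, fell from 437 and 434 CPM to 67.9 and 60.7 CPM, a log2 change of -2.76 ± 0.12. Ccr2, the chemokine receptor of monocytes, fell from 745 and 798 CPM to 122 and 105 CPM (-2.77 ± 0.14). Trib2, a pseudokinase that directs C/EBP alpha to degradation, fell from 21.5 and 21.3 CPM to 3.48 and 2.85 CPM (-2.76 ± 0.26). The 12 h libraries lay several times below the 0 h libraries in each. Samd4, an RNA-binding repressor of translation, fell from 222 and 213 CPM to 21.5 and 20.4 CPM (-3.38 ± 0.17), and Sdc1, the proteoglycan syndecan-1, from 386 and 331 CPM to 36.9 and 38.7 CPM (-3.24 ± 0.15). Aebp1 (-2.84), the scaffold gene Dlg2 (-2.19), the semaphorin co-receptor gene Nrp1 (-2.17), the adhesion receptor gene Adgrl4 (-2.13), the GTPase gene Gimap6 (-2.10) and the myosin gene Myh7b (-2.07) completed the 14, again as log2 changes.

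Among 32 myeloid transcription factor genes tested, 15 rose, 5 fell and 12 were not called at 12 h. That is 62.5% called, against 16.0% of all genes tested (9.20% higher, 6.81% lower). The median log2 change was 0.59 in the list and 0 over all genes. Cebpa, which opens the granulocyte-monocyte program, was at 139.9 and 137 CPM at 0 h against 246 and 254 CPM at 12 h (0.85 ± 0.10, adjusted p = 2.3e-06). Spi1, which encodes PU.1, was at 82.2 and 79.3 CPM at 0 h against 139 and 159.6 CPM at 12 h (0.89 ± 0.11, adjusted p = 9.6e-06). Irf8, the factor of monocyte and dendritic fate, was at 19.5 and 17.7 CPM at 0 h against 37.7 and 36.6 CPM at 12 h (1.00 ± 0.10, adjusted p = 3.6e-07). The 12 h libraries of all 3 were above those at 0 h, by under 2-fold for Cebpa and Spi1 and by about 2-fold for Irf8. Gfi1b, the repressor that erythroid and platelet-forming cells need, rose from 2.69 and 2.51 CPM to 13.2 and 13.5 CPM (2.37 ± 0.19), while its paralog Gfi1, a transcriptional repressor that granulocyte maturation requires, fell from 175 and 178 CPM to 115 and 126 CPM (-0.56 ± 0.14, adjusted p = 0.0071). Gfi1 lost its call without library A of 12 h. Both changes were larger before 12 h. Against 0 h, the log2 change of Gfi1b was 2.87 at 4 h and 3.98 at 8 h, and that of Gfi1 was -1.41 and -1.09. Set directly against 8 h, the 12 h level differed by -1.61 for Gfi1b (adjusted p = 2.4e-06) and 0.53 for Gfi1 (adjusted p = 0.017). Gata1, the erythroid and eosinophil factor, rose from 0.199 and 0.425 CPM to 3.16 and 2.68 CPM (3.17 ± 0.29), and Klf4, a factor of monocytes, fell from 0.971 and 0.728 CPM to 0.215 and 0.212 CPM (-1.96 ± 0.42). Id2, an inhibitor of helix-loop-helix factors, was not called at 12 h (-0.19 ± 0.25, adjusted p = 0.68). It had been higher than at 0 h earlier, with a log2 change of 2.1 at 4 h (adjusted p = 1.7e-06) and 1.42 at 8 h (adjusted p = 0.00013).

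Of 20 tested genes listed as HOXA9 partners or genes dependent on HOX and MEIS, 9 fell at 12 h in edgeR's test. None rose and 11 were not called, with 45.0% called against 16.0% of all genes tested and a median log2 change of -0.30. At an unadjusted p under 0.05, 1 was higher and 10 were lower, and DESeq2 called 9. Meis1, the HOXA9 cofactor, fell from 27.5 and 26.5 CPM to 16.6 and 14.9 CPM (-0.77 ± 0.12, adjusted p = 0.00011). Sox4, a progenitor factor, fell from 162 and 168 CPM to 71.9 and 59.9 CPM (-1.33 ± 0.15), and Foxp1, a forkhead factor of B-cell progenitors, from 236 and 228 CPM to 132 and 118 CPM (-0.89 ± 0.10). None of these 3 showed overlap between the times. Myb, a proto-oncogene factor of proliferating progenitors, was at 959.8 and 968 CPM at 0 h against 817 and 730.4 CPM at 12 h, and its change of -0.32 ± 0.14 did not pass (adjusted p = 0.14, 95% interval -0.61 to -0.02), though it did with no filter on low counts. Stem and progenitor genes were mixed, with 5 of 20 tested higher and 8 lower (65.0% called). Kit fell (-0.57 ± 0.11, adjusted p = 0.0012) and so did Cd34, a sialomucin of progenitors, at 2676 and 2783 CPM at 0 h against 2138 and 2132 CPM at 12 h (-0.35 ± 0.09, adjusted p = 0.01), although Cd34 lost its call without library B of either time.

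Receptors for growth factors and cytokines mostly rose, with 14 of 24 tested higher, 3 lower and 7 not called. The share called was 70.8%, against 16.0% of all genes tested, and the median log2 change was 0.67. Csf1r, the macrophage colony-stimulating factor receptor, rose from 0.672 and 0.89 CPM to 6.47 and 7.48 CPM (3.14 ± 0.32, adjusted p = 4.3e-07). Il1rl1, the interleukin-33 receptor, rose from 0.224 and 0.162 CPM to 1.22 and 1.60 CPM (2.87 ± 0.38), and Il5ra, the interleukin-5 receptor alpha chain, from 0.697 and 0.971 CPM to 3.55 and 2.66 CPM (1.88 ± 0.27). All 3 began near or under 1 CPM and their 12 h libraries were clear of those at 0 h. The 3 that fell were Flt3 and Kit, described above, and Ifngr1, an interferon gamma receptor chain named after its values were seen (-0.43 ± 0.09, adjusted p = 0.002).

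Feedback regulators of receptor tyrosine kinases, which are induced by ERK signalling and restrain it, were mostly lower among those called. Of 19 tested, 9 fell, 2 rose and 8 were not called, with a median log2 change of -0.40. Calls covered 57.9% of the list, against 16.0% of all genes tested. Spry4, a Sprouty inhibitor, was at 51.1 and 44.4 CPM at 0 h against 11.4 and 11.7 CPM at 12 h (-2.04 ± 0.12, adjusted p = 1.5e-10). Dusp6, the phosphatase of ERK, was at 149 and 158 CPM at 0 h against 50.3 and 46.8 CPM at 12 h (-1.66 ± 0.19, adjusted p = 1.6e-06). Etv4, an ETS factor downstream of ERK, was at 18.6 and 15.5 CPM at 0 h against 4.96 and 5.69 CPM at 12 h (-1.68 ± 0.16, adjusted p = 2.3e-07). For all 3 the 12 h libraries lay well below the 0 h level, with no overlap. At 4 h the same genes had log2 changes of -0.56 (Spry4), -0.30 (Dusp6) and -0.11 (Etv4), and at 8 h -1.74, -1.30 and -0.50. Dusp4, another ERK phosphatase, stood at 0.50 at 4 h and -1.31 ± 0.20 at 12 h. The 2 that rose were Dusp5, a nuclear ERK phosphatase (1.14 ± 0.16), and the phosphatase gene Ptpn6 (0.57 ± 0.12), named because it is 1 of 2. The number called in the list fell to 7 without library B of 12 h.

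**Figure D2:**
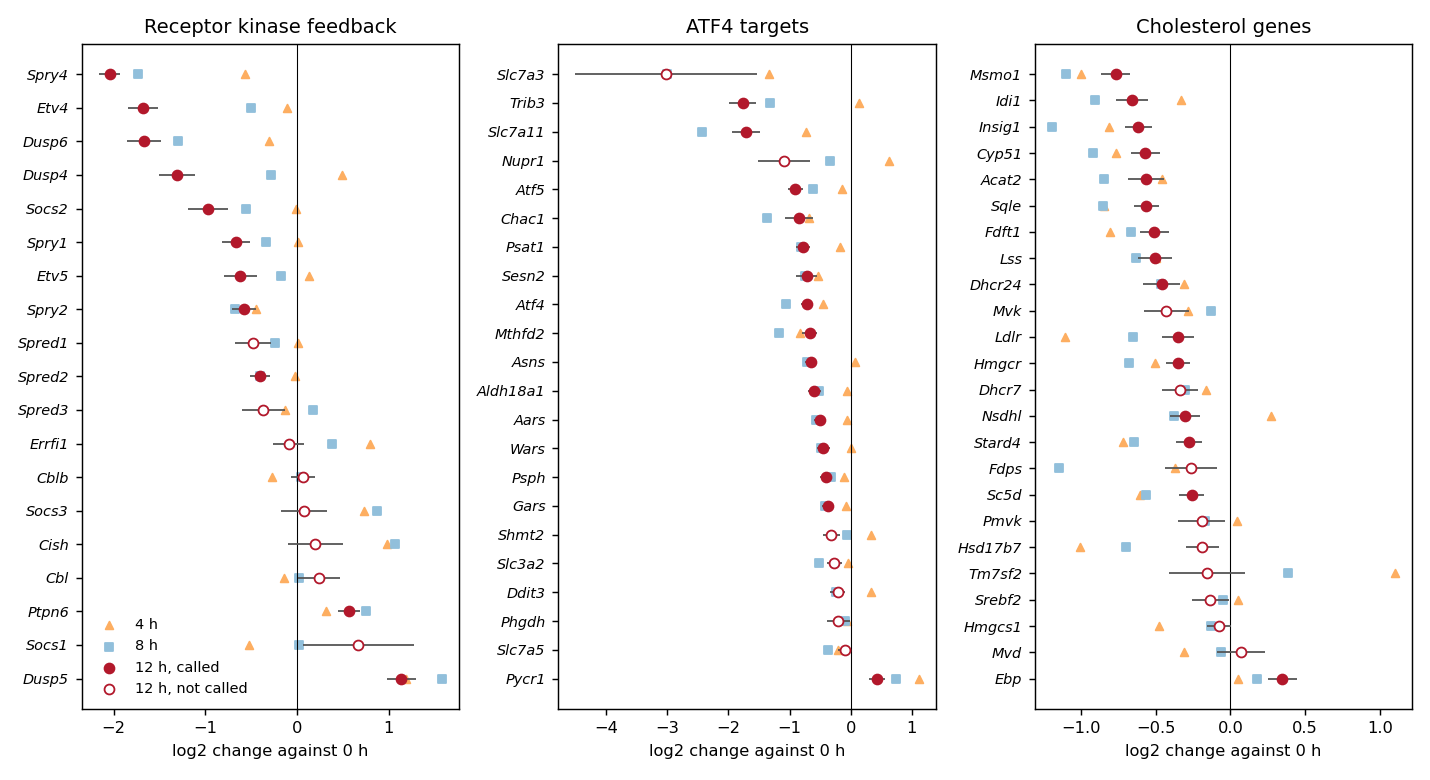
log2 change against 0 h for each tested member of 3 lists at 4 h (triangles), 8 h (squares) and 12 h (circles, filled where called, with bars of 1 standard error), and the x axis differs between panels. Spry4, Etv4, Dusp6 and Dusp4 lie furthest left among the feedback regulators at 12 h, and most ATF4 and cholesterol genes lie left of 0.

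Genes of amino acid synthesis and transport controlled by ATF4, the factor of the integrated stress response, fell in 14 of 22 tested, rose in 1 and were not called in 7 at 12 h, with a median log2 change of -0.62. At 4 h 4 were lower and 1 higher, and at 8 h 16 were lower and 1 higher. The shares called at 4, 8 and 12 h were 22.7%, 77.3% and 68.2%, against 11.7%, 21.9% and 16.0% of all genes tested. Trib3, a pseudokinase induced by ATF4, was at 37.3 and 33.9 CPM at 0 h against 9.80 and 11.1 CPM at 12 h (-1.77 ± 0.22, adjusted p = 8.2e-06). Slc7a11, the cystine transporter, was at 128 and 132 CPM at 0 h against 44.9 and 34.5 CPM at 12 h (-1.71 ± 0.23, adjusted p = 1.4e-05), and Atf5, a factor induced in the same response, at 96.4 and 93.5 CPM at 0 h against 46.4 and 55.0 CPM at 12 h (-0.91 ± 0.12, adjusted p = 9.8e-06). No library at 12 h reached the 0 h level of these genes. Chac1, which degrades glutathione, fell from 2.22 and 2.25 CPM to 1.16 and 1.32 CPM (-0.85 ± 0.23), but lost its call without library A of 12 h or library B of 0 h. The member that rose was Pycr1, of proline synthesis (0.43 ± 0.13, adjusted p = 0.033).

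The C/EBP-ATF response element binds ATF4 paired with a C/EBP protein, and its core was searched as TGATGNAA on both strands of the 250 bases before the start site, in RefSeq promoter windows of GRCm38.p6. The element was the last added of 7 motifs searched, after the values were seen. It was present in 8 of 23 windows of the list, against 3.45% of all 32851 windows. The list is of genes controlled by ATF4, so this difference could follow from how the list was written. The 6 genes called at 12 h that hold the element, 5 that fell and Pycr1 that rose, are printed because both directions carry the same letters. Each line gives up to 25 bases on either side of a match, 5′ to 3′ on the gene's strand, with the match in capitals. None of these matches overlapped a match to another motif searched, and a match is a description of letters, not of binding.
Slc7a11 (chr3:50443628-50443704, minus strand): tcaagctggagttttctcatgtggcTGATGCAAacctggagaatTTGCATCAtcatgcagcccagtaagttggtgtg
Chac1 (chr2:119351024-119351081, plus strand): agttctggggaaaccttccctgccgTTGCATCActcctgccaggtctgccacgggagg
Aars (chr8:111033705-111033762, plus strand): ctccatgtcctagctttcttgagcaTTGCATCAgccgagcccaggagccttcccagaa
Asns (chr6:7693210-7693257, minus strand): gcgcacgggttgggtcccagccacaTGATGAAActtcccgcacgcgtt
Gars (chr6:55037946-55038000, plus strand): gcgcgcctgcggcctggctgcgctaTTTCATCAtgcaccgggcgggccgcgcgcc
Pycr1 (chr11:120643819-120643876, minus strand): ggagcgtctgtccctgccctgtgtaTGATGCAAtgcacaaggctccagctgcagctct
Slc7a11 has 2 matches in opposite orientations. Among the others, named for the element they hold, Asns makes asparagine and was lower, with a log2 change of -0.65 (adjusted p = 2.9e-05), and the tRNA synthetase genes Aars (-0.50) and Gars (-0.38) fell as well.

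Cholesterol synthesis and uptake genes, which SREBP2 activates when sterols are low, were lower in 14 of 24 tested at 12 h. In the same list 1 was higher and 9 were not called, or 62.5% called against 16.0% of all genes tested. The median log2 change was -0.34. Msmo1, a demethylase of the sterol pathway, was at 66.8 and 80.0 CPM at 0 h against 43.6 and 42.8 CPM at 12 h (-0.77 ± 0.10, adjusted p = 9.0e-06). Idi1, an isomerase of isoprenoid precursors, was at 31.8 and 35.2 CPM at 0 h against 21.8 and 20.7 CPM at 12 h (-0.66 ± 0.11), and Insig1, which retains SREBP in the endoplasmic reticulum, at 103 and 113 CPM at 0 h against 70.7 and 70.0 CPM at 12 h (-0.61 ± 0.09). The 2 times did not overlap in these genes, though the falls were under 2-fold. At 8 h the same 3 genes stood at -1.10, -0.90 and -1.19, and the list had 16 lower and none higher. That was 66.7% called, against 21.9% of all genes tested at 8 h. The direct difference of 12 h from 8 h was 0.34 for Msmo1 (adjusted p = 0.037), 0.25 for Idi1 (adjusted p = 0.2) and 0.58 for Insig1 (adjusted p = 0.00023). The member that rose at 12 h was Ebp, a sterol isomerase (0.35 ± 0.10). Without library A of 0 h the number called fell to 8. A sterol element core, TCACNCCA on either strand, was present in 3 of the list's 20 windows and in 3.67% of all windows. The list is of genes that SREBP2 activates, so this difference too could follow from how it was written. Msmo1 was the called gene among those holding the core, and its stretch is shown with the match in capitals.
Msmo1 (chr8:64733723-64733780, minus strand): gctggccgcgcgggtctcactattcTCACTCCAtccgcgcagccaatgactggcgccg

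Primary granule genes, which early granulocyte precursors make, rose in 6 of 17 tested, with none lower and a median log2 change of 0.56. This was 35.3% called, against 16.0% of all genes tested. Mgst1, a microsomal glutathione transferase, rose from 0.249 and 0.445 CPM to 2.43 and 3.24 CPM (2.98 ± 0.28) and Prss57, a granule protease, from 12.5 and 10.9 CPM to 21.3 and 24.1 CPM (0.96 ± 0.18). Both 12 h libraries of Mgst1 were several times the 0 h level and those of Prss57 were near 2-fold of it. Prtn3, proteinase 3, rose from 272 and 277 CPM to 389 and 524 CPM (0.73 ± 0.18, adjusted p = 0.0081), a call lost without either 0 h library or library B of 12 h. Mpo (0.61 ± 0.23, adjusted p = 0.078) and Elane, neutrophil elastase (0.56 ± 0.28, adjusted p = 0.21), were not called, and both passed when fewer libraries or no filter on low counts was used. Lyz2, lysozyme, had no count in any library at 0 or 12 h, where 3 counts would be 0.0607 to 0.0747 CPM. Even at 120 h it was at only 0.649 and 0.402 CPM. The cells carry a lysozyme GFP reporter, and the labels do not say whether it alters this row. The lack of counts therefore does not show that the lysozyme gene was inactive.

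Secondary and tertiary granule genes, which follow in later precursors, rose in 8 of 18 tested and fell in 1, with a median log2 change of 0.44. Fcnb, a ficolin of granules, rose from 1.02 and 0.991 CPM to 4.66 and 5.34 CPM (2.31 ± 0.26), Padi4, which citrullinates histones, from 0.373 and 0.344 CPM to 1.87 and 1.79 CPM (2.35 ± 0.46) and Ltb4r1, a leukotriene B4 receptor, from 1.42 and 1.72 CPM to 5.99 and 7.08 CPM (2.05 ± 0.18). All 3 began at a low level and had no overlap between times. The 1 that fell was the collagenase gene Mmp8 (-1.85 ± 0.27), named for that reason. The late granule genes Ltf, Camp and Ngp, lactoferrin, cathelicidin and neutrophilic granule protein, were under 1 CPM in all 4 libraries and not called, and were named after their values were seen. Among NADPH oxidase subunits, which make superoxide, 4 of 7 rose and none fell (57.1% called, against the same 16.0%). Ncf1 rose from 158 and 157 CPM to 278 and 293 CPM (0.86 ± 0.11), with the 2 times apart. Cyba (0.61 ± 0.16) and Ncf4 (0.41 ± 0.12) lost their calls without either 0 h library or library B of 12 h, which left 2 called.

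Surface and pattern recognition receptors rose in 14 of 24 tested and fell in 1, Ccr2, with a median log2 change of 0.85. They had 62.5% called, against 16.0% of all genes tested. Cxcr2, the neutrophil chemokine receptor, rose from 1.12 and 1.29 CPM to 12.0 and 10.2 CPM (3.19 ± 0.23, adjusted p = 3.8e-09). Ccr1, a receptor for inflammatory CC chemokines, rose from 0.821 and 1.01 CPM to 9.48 and 8.84 CPM (3.31 ± 0.21, adjusted p = 4.7e-10). The lower 12 h library was several times the higher 0 h library in both. Leukocyte integrins and adhesion genes rose in 9 of 17 (52.9% called) with none lower and a median log2 change of 0.44. Itgb3, the integrin beta 3 chain, rose from 42.1 and 40.0 CPM to 167 and 163 CPM (2.01 ± 0.12), Itgb7, the beta 7 chain, from 2.59 and 1.86 CPM to 12.4 and 13.6 CPM (2.56 ± 0.18), and Itgam, CD11b, from 4.38 and 4.77 CPM to 15.04 and 14.01 CPM (1.66 ± 0.16). The 12 h libraries of all 3 were over 2-fold above those at 0 h.

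**Figure D3:**
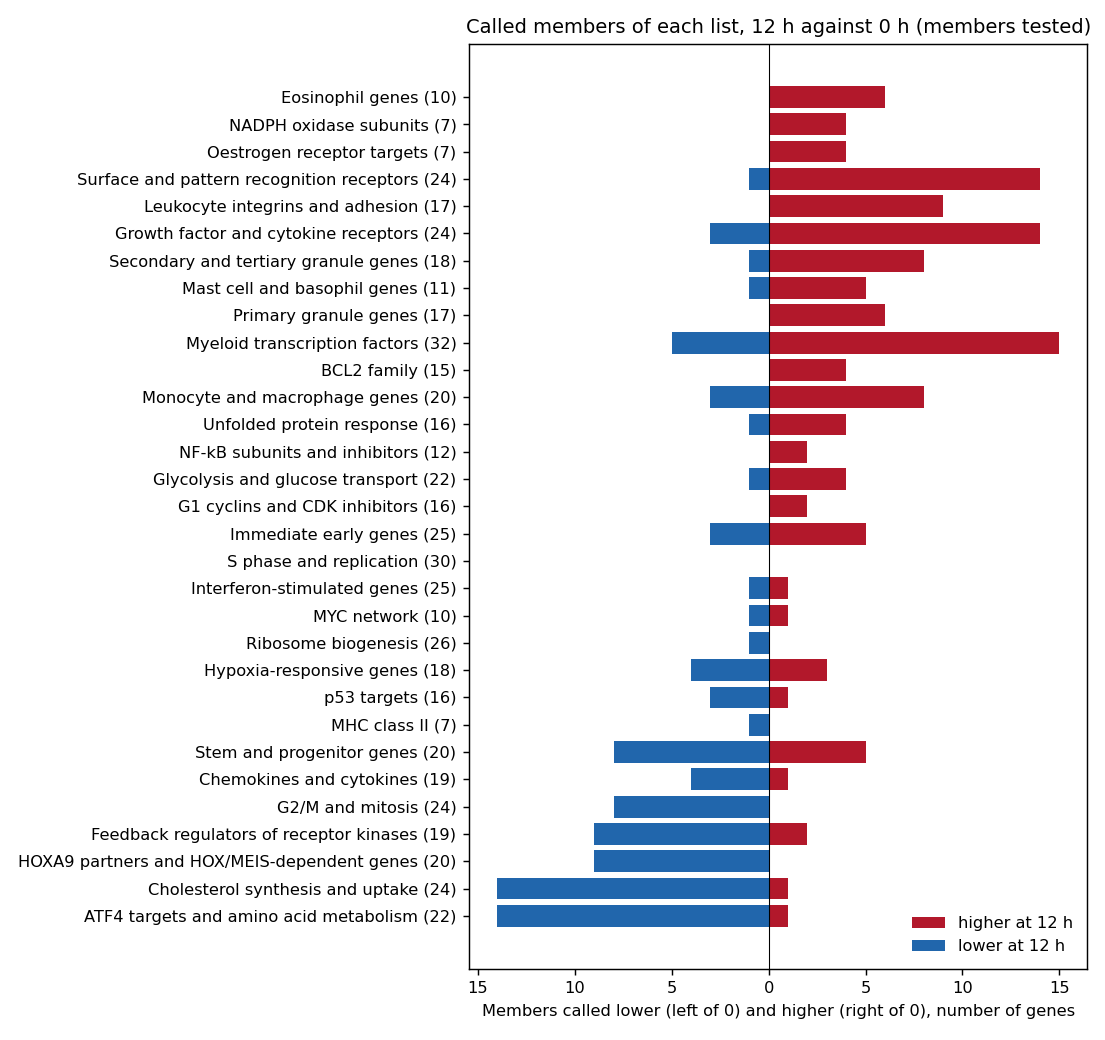
Number of members called higher (bars to the right) and lower (bars to the left) at 12 h against 0 h in each gene list drawn, with the number tested in parentheses. The lists of other lineages, mitochondrial transcripts, nuclear non-coding RNA and heat shock genes are not drawn. Receptor, adhesion and granule lists extend to the right, and the ATF4 and cholesterol lists extend furthest to the left with 14 genes each. Of all genes tested, 9.20% were called higher and 6.81% lower.

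The eosinophil list had 6 of 10 tested higher and none lower, or 60.0% called against 16.0% of all genes tested. Of its 12 members 2 had too few counts to test. Over the 4 libraries 6 members stayed under 1 CPM, of which 3 had no count. Those higher included Prg3, Il5ra and Alox15, a lipoxygenase that went from 0.871 and 0.769 CPM to 2.21 and 2.09 CPM (1.40 ± 0.28). Prg2, the major basic protein of eosinophil granules, was at 3.66 and 4.79 CPM at 0 h against 7.69 and 9.88 CPM at 12 h (1.04 ± 0.16, adjusted p = 6.8e-05). Mast cell and basophil genes rose in 5 of 11 and fell in 1, Kit (54.5% called). Hdc, which makes histamine, rose from 9.81 and 12.0 CPM to 42.8 and 44.5 CPM (2.00 ± 0.14), and Cpa3, a mast cell carboxypeptidase, from 170.1 and 203 CPM to 519 and 504 CPM (1.45 ± 0.14). The libraries of the 2 times did not overlap in any of these 4. Monocyte and macrophage genes went both ways, 8 of 20 higher and 3 lower (55.0% called), with a median log2 change of 0.07. Cd14, the lipopolysaccharide co-receptor, rose from 0.448 and 0.465 CPM to 2.26 and 2.61 CPM (2.4 ± 0.47), and Mmp12, macrophage elastase, fell from 1.79 and 1.56 CPM to 0.0645 and 0.0235 CPM (-5.13 ± 0.63), which is few counts at 12 h. The whole line was sequenced in bulk, so more cells of a type and more RNA per cell cannot be told apart.

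Lists of other lineages showed which of their genes these cells carried. For reference, 16.0% of all genes tested were called at 12 h, 9.20% higher and 6.81% lower. B-lymphoid genes were higher in 3 of 15 tested and lower in 3, and their summed level went from 591 and 574 CPM at 0 h to 270.0 and 319 CPM at 12 h. Rag1, Rag2 and Ebf1 were the 3 that fell. Ighm, the immunoglobulin mu chain, rose from 0.796 and 0.688 CPM to 8.44 and 8.30 CPM (3.50 ± 0.20). Pax5, a defining B-cell gene, was under 1 CPM in all 4 libraries. Megakaryocyte and platelet genes were higher in 5 of 9 with none lower, and their summed level of 170 and 165 CPM became 728 and 680 CPM, nearly all of it Thbs1, thrombospondin 1, at 152 and 148 CPM at 0 h against 689.6 and 636 CPM at 12 h (2.15 ± 0.15). Of the platelet receptor genes, Itga2b, the integrin alpha IIb chain, rose from 7.47 and 7.65 CPM to 19.1 and 20.1 CPM (1.38 ± 0.15, adjusted p = 7.8e-07), Gp1ba of the von Willebrand factor receptor from 0.373 and 0.405 CPM to 1.22 and 0.917 CPM (1.45 ± 0.31, adjusted p = 0.0026) and Gp9 of the same complex from 6.52 and 5.64 CPM to 11.4 and 16.7 CPM (1.21 ± 0.20, adjusted p = 0.00015). Other genes of that lineage, named after their values were seen, were at low levels, with Pf4 and Vwf under 1 CPM and not called, and no count for Gp6. T and NK cell genes had 6 of 15 with enough counts to test, 1 higher, Tcf7 (0.68 ± 0.10), and 1 lower, Lck (-1.36 ± 0.30), at 30.7 and 29.4 CPM in sum at 0 h and 41.9 and 43.9 CPM at 12 h. Cd3e, Cd4 and Cd8a, which define T cells, were among the 8 with no count in the 4 libraries. Erythroid genes summed to 748 and 852 CPM and then 902 and 773 CPM, with 1 of 6 tested higher, Gata1, 1 lower, Car2 (-0.75 ± 0.17), and no count for Alas2 of heme synthesis. Dendritic cell genes summed to 408 and 363 CPM and then 116 and 115 CPM, mostly Flt3, with 2 of 7 lower, Flt3 and Tcf4 (-0.63 ± 0.13), of which 1 remained called without library B of 12 h, and no count for Xcr1. Of 3 stromal and epithelial genes tested none was called by edgeR or DESeq2, 1 was higher at an unadjusted p under 0.05, and Epcam and Cdh5 had no count. The part of these genes in the other results was not tested.

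Genes whose change held from 4 through 12 h were named by a rule that asked for a call in the same direction and at least 1 on the log2 scale at each of 4, 8 and 12 h. Cd300lb, an activating receptor of myeloid cells, was at 5.87 and 5.62 CPM at 0 h, 29.3 and 28.5 CPM by 4 h, 17.7 and 16.7 CPM by 8 h and 19.0 and 18.7 CPM at 12 h. Tle3, a Groucho co-repressor, was at 8.64 and 8.03 CPM, 19.5 and 18.8 CPM, 18.1 and 15.7 CPM and 29.1 and 31.3 CPM at those times. Irf8 was at 19.5 and 17.7 CPM, 74.3 and 65.3 CPM, 51.5 and 50.6 CPM and 37.7 and 36.6 CPM. Among these 4 times Cd300lb and Irf8 were highest at 4 h, and Tle3 was highest at 12 h. Set directly against 4 h, the 12 h level of Irf8 differed by -0.91 on the log2 scale (adjusted p = 6.3e-07), that of Cd300lb by -0.62 (adjusted p = 9.5e-05) and that of Tle3 by 0.66 (adjusted p = 0.0008). Cyp4f18, the melanocortin receptor gene Mc5r (1.84 ± 0.16 at 12 h), Dusp5 and Plod1, a lysyl hydroxylase of collagen (1.00 ± 0.14), completed the higher set.

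On the lower side Hlf was at 104 and 146 CPM by 4 h, 73.7 and 72.6 CPM by 8 h and 67.9 and 60.7 CPM at 12 h, after 437 and 434 CPM at 0 h. Ccr2 was at 249.9 and 373 CPM, 114 and 113 CPM and 122 and 105 CPM at the same times. Acot1, an acyl-CoA thioesterase, was at 20.2 and 21.3 CPM at 0 h and 6.19 and 6.80 CPM, 7.06 and 7.16 CPM and 5.91 and 6.44 CPM after it. Acot1 was near its 12 h level by 4 h, while Ccr2 and Hlf were lower at 8 h than at 4 h. Against 8 h neither Ccr2 (adjusted p = 1) nor the other 2 were called at 12 h, with differences of -0.19 for Hlf (adjusted p = 0.39) and -0.20 for Acot1 (adjusted p = 0.34). Samd4, Trib2, Myh7b, the nucleotide exchange factor gene Arhgef3 (-1.61 ± 0.15 at 12 h) and Calcrl, the receptor subunit for adrenomedullin and CGRP (-1.58 ± 0.18), met the same rule.

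**Figure D4:**
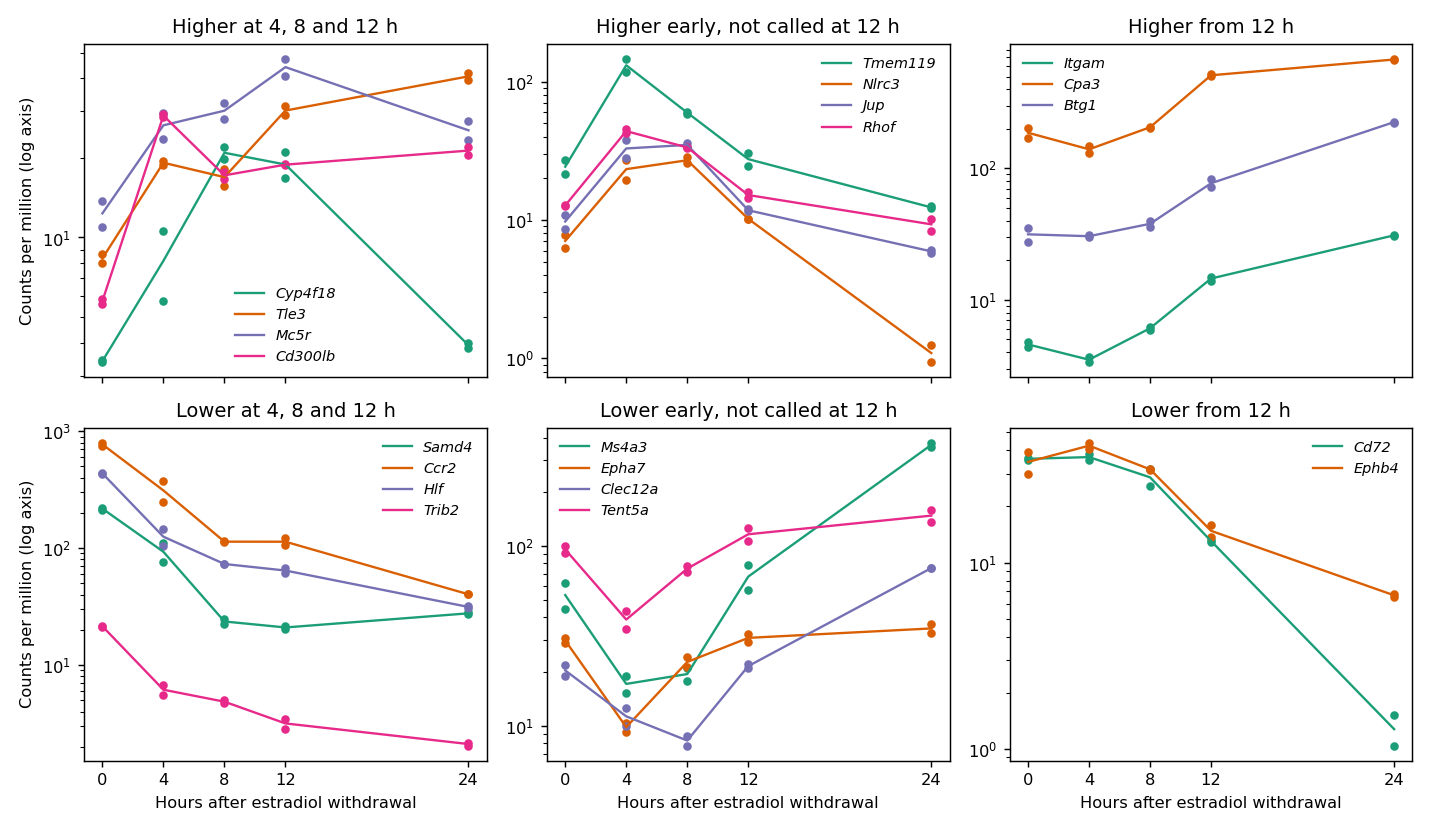
Level in CPM (log axis) by hours after estradiol withdrawal, 0 to 24 h, for up to 4 genes of each kind of course. Points are libraries, 2 per time, and lines join their means. Genes in the middle panels (early, not called at 12 h) leave their 0 h level at 4 or 8 h and are not called against 0 h at 12 h.

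Other early changes were no longer called at 12 h. Tmem119, a transmembrane protein of bone and microglia, was at 27.0 and 21.5 CPM at 0 h, 145 and 117 CPM by 4 h, 60.7 and 58.5 CPM by 8 h and 24.7 and 30.3 CPM at 12 h. Its 12 h libraries differed from 0 h by 0.18 ± 0.14 (adjusted p = 0.45, 95% interval -0.12 to 0.48) and from 4 h by -2.25 (adjusted p = 5.8e-10). Jup, plakoglobin of cell junctions, went from 10.9 and 8.58 CPM at 0 h to 37.6 and 28.1 CPM by 4 h and 11.6 and 11.9 CPM at 12 h. Both genes were several times above 0 h at 4 h, and their 12 h libraries lay close to it. Angptl2, a secreted angiopoietin-like protein, was at 65.0 and 56.3 CPM, 211 and 173 CPM and 53.8 and 56.6 CPM at 0, 4 and 12 h, and the GTPase gene Rhof at 12.8 and 12.7 CPM, 45.2 and 42.6 CPM and 14.4 and 15.8 CPM. At 12 h Nlrc3, a NOD-like receptor that restrains signalling, had a change of 0.53 that missed the threshold (adjusted p = 0.055) and passed it in several alternative fits. Pear1, Rapgef3 and Ctla2b met the same rule, with log2 changes at 12 h of 0.32, -0.41 and 0.10. Pear1 was called at 12 h without library A of 0 h, and Rapgef3 with no filter on low counts or the compared times alone. A missed threshold does not show that these genes were back at their 0 h level.

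Myb followed the opposite course, at 379 and 473 CPM by 4 h and 584 and 579 CPM by 8 h against 959.8 and 968 CPM at 0 h. Ms4a3, a membrane protein of granulocyte-monocyte precursors, was at 44.6 and 62.0 CPM at 0 h, 15.2 and 18.9 CPM by 4 h, 17.8 and 21.0 CPM by 8 h and 57.1 and 78.0 CPM at 12 h. Clec12a, an inhibitory lectin receptor of myeloid cells, was at 18.9 and 21.7 CPM, 10.0 and 12.5 CPM, 8.79 and 7.75 CPM and 20.8 and 22.1 CPM at those times. All 3 were lowest at 4 or 8 h, and the 12 h libraries of Ms4a3 and Clec12a overlapped those at 0 h. Ms4a3 was called higher at 12 h than at 0 h with no filter on low counts or the compared times alone. Against 8 h, the 12 h level differed by 1.80 for Ms4a3 (adjusted p = 9.8e-06), 1.37 for Clec12a (adjusted p = 1.4e-06) and 0.41 for Myb (adjusted p = 0.076). The ephrin receptor gene Epha7 (0.05 against 0 h at 12 h), Tent5a (0.28), the hepatocyte growth factor receptor gene Met (0.28), the ceramide synthase gene Cers6 (0.20) and Nxpe5 (-0.18) met the same rule.

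A further set was called at 12 h against 0 h and against 8 h, but not at 4 or 8 h against 0 h. Btg1, an antiproliferative factor, was at 27.6 and 35.5 CPM at 0 h, 36.1 and 39.7 CPM by 8 h and 82.5 and 71.8 CPM at 12 h. Cpa3 was at 207 and 205 CPM by 8 h and Itgam at 6.25 and 5.90 CPM, before the 12 h levels given above. The step from 8 to 12 h was 1.03 on the log2 scale for Btg1 (adjusted p = 4.6e-05), 1.31 for Cpa3 (adjusted p = 5.6e-06) and 1.26 for Itgam (adjusted p = 2.9e-05). Cd72, a B-cell co-receptor, fell from 36.4 and 35.7 CPM at 0 h and 25.8 and 31.6 CPM by 8 h to 12.9 and 13.2 CPM at 12 h (-1.47 ± 0.18). Ephb4, an ephrin receptor, was at 39.4 and 29.99 CPM, 31.8 and 31.4 CPM and 13.7 and 15.9 CPM at those times (-1.23 ± 0.15). In both falling genes the 12 h libraries were clearly the lowest of the first 12 h.

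Several large increases passed through a dip. Igsf6 was at 9.76 and 13.2 CPM at 0 h, 3.82 and 4.30 CPM by 4 h, 12.2 and 13.1 CPM by 8 h and 55.7 and 51.9 CPM at 12 h, and its change at 4 h was -1.5 (adjusted p = 9.7e-07). Mtus1 was at 13.8 and 19.4 CPM, 8.05 and 8.85 CPM, 31.2 and 33.3 CPM and 93.1 and 90.5 CPM (-0.98 at 4 h, adjusted p = 0.00017), and Hp at 10.2 and 10.0 CPM, 5.53 and 5.06 CPM, 21.3 and 20.8 CPM and 59.7 and 73.5 CPM (-0.93 at 4 h, adjusted p = 0.0014). Among these 4 times each was lowest at 4 h and highest at 12 h. Slc7a8 was also called lower at 4 h, with a log2 change of -0.54 (adjusted p = 0.04). These 4 genes were noticed after the values were seen.

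Among proliferation genes, none of 30 S phase and replication genes was called by edgeR or DESeq2, against 16.0% of all genes in edgeR's test. Their median log2 change was -0.06, and at an unadjusted p under 0.05 1 was higher and 4 were lower. Of 24 G2/M and mitosis genes 8 fell and none rose, with a median of -0.26, but 4 stayed called without library A of either time or library B of 0 h, and 1 without library B of 12 h. Cenpe, a kinetochore motor, was at 104 and 109.6 CPM at 0 h against 74.2 and 67.0 CPM at 12 h (-0.60 ± 0.11, adjusted p = 0.00037). Mki67, the proliferation antigen Ki-67, was not called (-0.34 ± 0.13, adjusted p = 0.08), though it passed with DESeq2, with no filter on low counts, with the 0 to 12 h libraries alone or without either library of 120 h. Not called either was Myc, a driver of growth, at 481 and 479 CPM at 0 h against 500.0 and 498 CPM at 12 h (0.06 ± 0.11, adjusted p = 0.8). Mycn, its paralog, fell from 1.59 and 1.56 CPM to 0.107 and 0.0705 CPM (-4.09 ± 0.46, few counts at 12 h), and had stood at -3.49 at 4 h. In the ribosome biogenesis list 1 of 26 was lower at 12 h, Ncl, nucleolin (-0.44 ± 0.11). At 8 h 11 were lower, or 42.3% called against 21.9% of all genes tested at 8 h. The number called at 12 h was 2 with DESeq2, the 0 to 12 h libraries or the compared times alone. It was 3 with a replicate block on the library letter and 4 with no filter on low counts. Ncl lost its call without library B of 0 h, and 2 of the list were called without library A of 12 h.

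For 5 further lists the counts at 4, 8 and 12 h, which share the 0 h libraries, are given side by side. Over all genes tested, 11.7% were called at 4 h, 21.9% at 8 h and 16.0% at 12 h. At 12 h the lists had 32.0% (immediate early), 22.7% (glycolysis), 8.0% (interferon-stimulated), 16.7% (NF-kB) and 57.1% (estrogen receptor targets) called. The NF-kB share was thus near that of all genes. Immediate early genes, which respond to stimuli without new protein synthesis, had 10 of 25 higher and none lower at 4 h, 7 higher and 2 lower at 8 h and 5 higher and 3 lower at 12 h. Jun, a subunit of AP-1, had a log2 change of 2.88 at 4 h and 0.23 ± 0.33 at 12 h (adjusted p = 0.72). Atf3, a stress-induced factor, was under 0.1 CPM at 0 and 12 h and at 0.951 and 1.55 CPM by 4 h. Fos, another AP-1 subunit, was at 3.01 and 3.01 CPM at 0 h against 10.5 and 10.3 CPM at 12 h (1.79 ± 0.26, adjusted p = 4.8e-05), and its 12 h libraries were well above those at 0 h. Egr1, a zinc finger factor induced by ERK, fell from 3.46 and 3.50 CPM to 1.16 and 0.941 CPM (-1.72 ± 0.53), a call lost without any 1 of the 4 libraries. The number called at 12 h was 4 without library A of 0 h or library B of 12 h, and 5 without library A of 12 h. Glycolysis genes had 10 of 22 higher and 3 lower at 4 h, 5 higher and 4 lower at 8 h and 4 higher and 1 lower at 12 h. Aldoc, an aldolase, was at 0.448 and 0.364 CPM at 0 h, 9.46 and 6.95 CPM by 4 h and 2.36 and 2.09 CPM at 12 h (2.46 ± 0.32). Hk2, a hexokinase, rose at 12 h (0.48 ± 0.11). The number of glycolysis genes called was 3 without library A of 12 h and 2 without library B of either time. Interferon-stimulated genes had 6 of 25 higher and 1 lower at 4 h and 5 higher and 1 lower at 8 h, and at 12 h Oas3 was higher (1.5 ± 0.45) and Rtp4 lower (-3.48 ± 0.46). The 2 interferon genes called at 12 h became 4 with DESeq2 or all 24 libraries, 5 with the 0 to 12 h libraries or the compared times alone, and 6 with no filter on low counts or without either library of 96 h. NF-kB subunits and inhibitors had 6 of 12 higher at 4 h, 4 at 8 h and 2 at 12 h, Bcl3 (0.76 ± 0.22) and Tnip1 (0.44 ± 0.12), with 4 called at 12 h when no filter, the compared times alone or all but library A of 96 h were used. The calls of Oas3, Bcl3 and Tnip1 were lost without library B of either time, that of Oas3 also without library A of 12 h and that of Bcl3 also without library A of 0 h. Of the 15 genes listed as estrogen receptor targets, 8 had too few counts to test. Over the 4 libraries of 0 and 12 h, 9 of the 15 stayed under 1 CPM. Among the 7 tested, 4 were higher and none lower at each of 4, 8 and 12 h. At 12 h they included Xbp1, a factor of secretory cells (0.85 ± 0.09), and the retinoic acid receptor gene Rara (0.92 ± 0.29), which lost its call without library B of 0 h or of 12 h. The list had 2 called without library A of 0 h or library B of 12 h and 1 without library B of 0 h.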

How the data were processed

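RNA from 24 mouse samples was sequenced as paired ends from a stranded poly(A) library kit, per the labels' protocols. The authors deposited raw read counts per gene. STAR 2.4.2a, Picard and mm10 are named in the submitters' processing notes, and the counting program, its strand setting and the annotation are not given in the sources used here. Symbols came from GENCODE on GRCm38, and promoters from RefSeq GRCm38.p6.

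The deposited counts were tested in R 4.3.3 with edgeR 4.0.16 (quasi-likelihood, TMM scaling, filterByExpr, time as a factor, 20 withdrawal libraries) and called at a Benjamini-Hochberg adjusted p under 0.05. Lines naming no gene were left out, which left 82.67 to 85.69% of reads in genes. Gene counts were 36661334 to 49601719 per library. DESeq2 1.42.0 was an alternative. CPM were computed with TMM-scaled sizes, and intervals are 95%.

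Named genes were the 14 largest changes each way, set anchors and up to 4 called members per list with the largest change. Up to 8 genes each way per kind of time course were also named. The 14 each way were taken from genes whose 12 h and 0 h libraries did not overlap. Genes and lists were chosen with earlier results of these data known. The fit was tested on simulated data. A first check of the recovery of known changes, over genes of every level, fell short, and the check was then limited to genes of at least 1 CPM, where it passed. Below 1 CPM most known changes were missed, so that a gene at that level was not called says little. Some genes are not reported here by name, and the counts of genes and lists include them.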

Additional observations from a re-analysis of the deposited data

How the results depend on the processing

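Leaving out each of the 20 libraries in turn gave 1445 to 2534 genes called at 12 h against 0 h (822 to 1501 higher, 526 to 1089 lower). Leaving out each of the 8 libraries of 0 to 12 h in turn gave 2007 to 2805 for 12 h against 4 h, 632 to 1397 for 12 h against 8 h, 815 to 1710 for 4 h against 0 h and 1494 to 3313 for 8 h against 0 h. The 12 h against 8 h count was 666 and 632 without library A and B of 8 h, and 743 and 762 without library A and B of 12 h. Requiring a change above 2-fold (glmTreat) left 255 genes at 12 h, 153 higher and 102 lower, with 364 against 4 h, 23 against 8 h, 110 for 4 h and 197 for 8 h against 0 h. For 12 h against 0 h, other scaling gave 2328, no filter on low counts 2575, DESeq2 2524, the 0 to 12 h libraries alone 2364, the compared times alone 2370 and all 24 libraries 2346. The correlation of library deviations by letter was -0.0233 for 0 and 12 h and 0.202 for 0 and 4 h, and -0.158 to 0.215 over all 45 pairs of times. Not every pair passed 0.1, so the letters were not taken to pair the libraries, and a replicate block on the letter gave 2451 genes. Of 5066 values of named genes under alternatives, 4826 kept their side of the threshold, 200 lost the call, 40 gained it and 0 reversed. A reversal was counted only where the main fit or the alternative called the gene. Genes called in neither could change sign, as Atf3 did (-3.66 to 1.02). Requiring a change above 2-fold gave 85 of the lost calls, among 175 named genes. Genes under 1 CPM are limited by depth.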

Other observations

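Of 19 tested chemokine and cytokine genes, 1 was higher and 4 were lower at 12 h, or 26.3% called against 16.0% of all genes tested. Hgf, hepatocyte growth factor, fell from 273 and 276 CPM to 167 and 141 CPM (-0.83 ± 0.17, adjusted p = 0.0014), and Gas6, a ligand of TAM receptors, from 117 and 92.8 CPM to 52.6 and 60.0 CPM (-0.90 ± 0.13). Hgf had been lower still, at 45.4 and 69.3 CPM by 4 h and 115 and 104 CPM by 8 h. Its 12 h level differed from 4 h by 1.43 (adjusted p = 3.8e-06). Tgfb1, transforming growth factor beta 1, was the member that rose, from 200.4 and 178 CPM to 287 and 313 CPM (0.66 ± 0.09). Unfolded protein response genes had 4 of 16 higher and 1 lower. Xbp1, a factor of that response, was at 54.1 and 56.3 CPM at 0 h against 102 and 97.6 CPM at 12 h (0.85 ± 0.09, adjusted p = 4.1e-07), and Calr, the chaperone calreticulin, at 2748 and 3008 CPM at 0 h against 4264 and 4519 CPM at 12 h (0.61 ± 0.11). The libraries of 0 and 12 h did not overlap in any of these 5 genes. Hypoxia-responsive genes went both ways, 3 of 18 higher and 4 lower, with Bnip3l, a mitophagy receptor, higher (0.57 ± 0.10) and Egln1, an oxygen-sensing prolyl hydroxylase, lower (-0.59 ± 0.09). Of 15 BCL2 family genes 4 were higher and none lower, led by the BH3-only gene Bmf, at 0.647 and 0.587 CPM at 0 h against 1.48 and 1.65 CPM at 12 h (1.34 ± 0.26), with 2 called without library A of 12 h and 1 without library B of either time. The number of secreted factors called was 3 without library B of 0 h, and 8 with no filter on low counts, with the 0 to 12 h libraries or the compared times alone, or without either library of 96 h. For the hypoxia list it was 3 without library A of 0 h, 4 without library B of 0 h and 2 without library B of 12 h. Against the same 16.0%, p53 targets had 25% called (1 of 16 higher, 3 lower), G1 cyclins and inhibitors 12.5% (2 of 16 higher), MHC class II genes 14.3% (1 of 7 lower) and heat shock genes 12.5% (1 of 8 lower). The heat shock call was lost without any 1 of the 4 libraries of 0 and 12 h, and also without either library of 24, 36 or 120 h. The number called in the G1 list fell without any 1 of the 4 libraries of 0 and 12 h. No nuclear non-coding RNA of 7 was called by edgeR, by DESeq2 or at an unadjusted p under 0.05.

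Transcripts encoded by mitochondria were higher in 8 of 12 tested at 12 h, or 66.7% called against 16.0% of all genes tested. Their summed levels were 7408 and 8106 CPM at 0 h and 13412 and 9950.0 CPM at 12 h. None of the 12 was called without library A of 0 h or library A of 12 h, and 5 were called without library B of 0 h. Leaving these transcripts out of the library sizes, an alternative added after the data were seen, gave 2333 genes called at 12 h. The count table also holds 1 row whose identifier is not an Ensembl gene and whose identity the labels do not give. It was at 0.722 and 0.769 CPM at 0 h against 5.99 and 6.68 CPM at 12 h (3.08 ± 0.25, adjusted p = 2.3e-08) and at 1.97 and 1.75 CPM at 8 h.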
